A study of Mus musculus with 4 samples.

Results

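The BH3-only genes encode the proteins that start the mitochondrial pathway of apoptosis. Their proteins share a short helix, the BH3 domain, which binds the groove of the survival proteins BCL2, BCL-XL, BCL-W, MCL1 and A1, and some of them also activate the pore-forming effectors BAX and BAK directly. In the B lineage they set how many cells survive the checkpoints that follow antigen receptor gene rearrangement, and the protein BIM, encoded by Bcl2l11, is the best known of them in lymphocytes. The 8 genes described here are Bmf, Bbc3, Bcl2l11, Bid, Bad, Bik, Hrk and Pmaip1. They were taken by symbol from the 23275 entries of the authors' deposited table, and all 8 have 1 entry each.

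RNA was measured in B220+CD43+ cells, an early B-lineage phenotype, sorted from the marrow of C57BL/6 mice at 8 weeks. The Hdac3-deleted group held 2 libraries from Hdac3F/-Mb1cre+/- mice, with 1 conditional and 1 null allele of the histone deacetylase 3 gene. The wild-type group held 2 libraries from Hdac3+/+Mb1cre+/- mice. Both groups carried the recombinase, which is driven by the promoter of the B-lineage gene Mb1 (Cd79a), so cells of other lineages in the sort keep the conditional allele. Each library was made from the pooled cells of 2 mice. The authors' table gives 1 value per genotype in FPKM, mapped fragments divided by transcript length and by library size, a scale per length on which levels of different genes can be compared. It gives no value per library, so no spread between libraries is shown, library depth is unknown, and every p-value and q-value below is that of the authors' Cuffdiff test. A gene was called changed at a q, the p-value adjusted over all 12683 tested entries, under 0.05.

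Hdac3 was 22.0 FPKM in Hdac3-deleted cells and 46.8 FPKM in wild-type cells, or 47.1% of the wild-type level (q = 0.0016, authors' deposited table). The value covers the whole gene, exons outside the deleted part included. All cells of the Hdac3-deleted group also carry the null allele, and the wild-type group does not. The value therefore cannot tell loss from the null allele apart from recombination of the conditional allele, and it does not measure how complete recombination was. Ptprc, which encodes the B220 form of CD45, and Spn, which encodes CD43, were present, at 204 and 109 FPKM in Hdac3-deleted cells and 187 and 89.2 FPKM in wild-type cells. All 11 B-lineage markers had higher values in Hdac3-deleted cells and 5 of them were called, with a summed level of 3470 FPKM in Hdac3-deleted and 2232 FPKM in wild-type cells. With the authors' test statistic read as a normal deviate and adjusted over all entries, called the normal approximation below, 1 of the 5, Rag1, was called. Neutrophil and myeloid markers moved the other way, with 10 of 12 called lower, 9 of 12 by the normal approximation, and sums of 2636 FPKM in Hdac3-deleted and 10634 FPKM in wild-type cells. None of the 10 plasmacytoid dendritic cell markers was called by Cuffdiff, although 3 had an unadjusted p under 0.05 and a higher value, and their sums were 3876 FPKM in Hdac3-deleted and 2986 FPKM in wild-type cells. Over all tested entries Cuffdiff called 2.81% higher and 4.14% lower, and 8.16% had an unadjusted p under 0.05 with a higher value. The normal approximation called 1.08% of all entries higher and 2.65% lower. No marker of these 3 lists was at 0 in either genotype. These values move with the results below, and their part in those results was not tested. In RNA from a sorted population, fewer cells of a type and less RNA per cell cannot be told apart.

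The promoters of the raised genes and of Bcl2l11 are shown because FoxO factors and p53 are known activators of BH3-only genes, and because 2 of these windows hold the FoxO core letters. Each window runs from 250 bases before to 50 bases after an annotated start, from RefSeq on GRCm38.p6, the same assembly as mm10. Of the 8 genes, 6 matched the promoter table, with 12 windows in all, and Bik and Pmaip1 were not among them. Capitals mark TGTTTAC or its reverse complement GTAAACA, the FoxO core.
Bmf, farthest upstream of its 3 starts, chr2:118549637-118549936, minus strand: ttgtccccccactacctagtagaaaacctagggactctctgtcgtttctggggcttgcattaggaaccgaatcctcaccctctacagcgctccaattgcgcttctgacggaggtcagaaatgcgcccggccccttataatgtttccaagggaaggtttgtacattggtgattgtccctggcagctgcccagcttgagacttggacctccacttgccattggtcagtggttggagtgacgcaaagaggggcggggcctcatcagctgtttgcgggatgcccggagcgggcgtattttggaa
Bbc3, first of its 3 starts, chr7:16309333-16309632, plus strand: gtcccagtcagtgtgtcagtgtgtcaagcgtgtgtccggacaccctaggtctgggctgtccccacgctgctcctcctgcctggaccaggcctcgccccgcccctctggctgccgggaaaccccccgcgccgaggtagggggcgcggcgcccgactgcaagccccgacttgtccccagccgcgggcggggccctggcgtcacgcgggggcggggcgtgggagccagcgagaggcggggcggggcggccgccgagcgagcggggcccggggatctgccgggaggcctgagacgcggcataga
Bbc3, the next start, chr7:16310011-16310310, plus strand: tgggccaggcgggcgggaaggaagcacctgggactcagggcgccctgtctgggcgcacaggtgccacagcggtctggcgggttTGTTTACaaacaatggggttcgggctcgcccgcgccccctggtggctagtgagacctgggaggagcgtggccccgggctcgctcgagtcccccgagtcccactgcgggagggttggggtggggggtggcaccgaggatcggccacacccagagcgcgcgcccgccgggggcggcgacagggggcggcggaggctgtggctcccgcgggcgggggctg
Bcl2l11, first of its 2 starts, chr2:128125788-128126087, plus strand: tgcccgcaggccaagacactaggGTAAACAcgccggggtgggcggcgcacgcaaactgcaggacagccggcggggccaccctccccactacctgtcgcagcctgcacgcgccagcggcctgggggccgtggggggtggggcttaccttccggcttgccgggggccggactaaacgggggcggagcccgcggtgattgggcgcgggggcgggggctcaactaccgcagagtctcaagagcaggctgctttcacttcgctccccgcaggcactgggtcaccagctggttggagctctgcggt

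The FoxO core was found in 2 of the 12 windows, on the plus strand of the Bbc3 window from chr7:16310011 and on the minus strand of the Bcl2l11 window shown. It lay 167 bases before the annotated start in Bbc3 and 227 bases before it in Bcl2l11. Over all 32851 windows of the promoter table, 3.65% hold these letters on either strand. None of the 3 Bmf windows held them. The GC box letters GGGCGG were in 9 of the 12 windows, against 35.7% of all windows, and all 6 genes had at least 1. The Bbc3 window from chr7:16309333 held 5 GC boxes, that of Bmf shown above held 1, and their GC contents were 76.0% and 55.3%. The E-box CAGGTG was in 3 windows, of Bbc3 and Bad, against 20.2% of all windows. The p53 decamer was in 1 window, the Bmf window of chr2:118544538-118544837, against 8.36% of all windows. Windows of 1 gene can overlap, and a match of letters is a description of the sequence and not a bound site.

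Hdac3-deleted cells had higher transcripts of 2 BH3-only genes, Bmf and Bbc3, and no BH3-only gene was called lower. Of the 8 genes, 6 were tested by the authors and 2 of these were called, both higher, while 6.95% of all tested entries were called, 2.81% as higher and 4.14% as lower. The median log2 fold change of the 6 tested genes was 0.27, against 0.03 over all tested entries. At an unadjusted p under 0.05 there were 2 higher BH3-only genes and 1 lower, where 8.16% and 8.95% of all tested entries passed. By the normal approximation Bmf alone was called, 1 higher and 0 lower, against 1.08% and 2.65% of all entries.

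**Figure D1:**
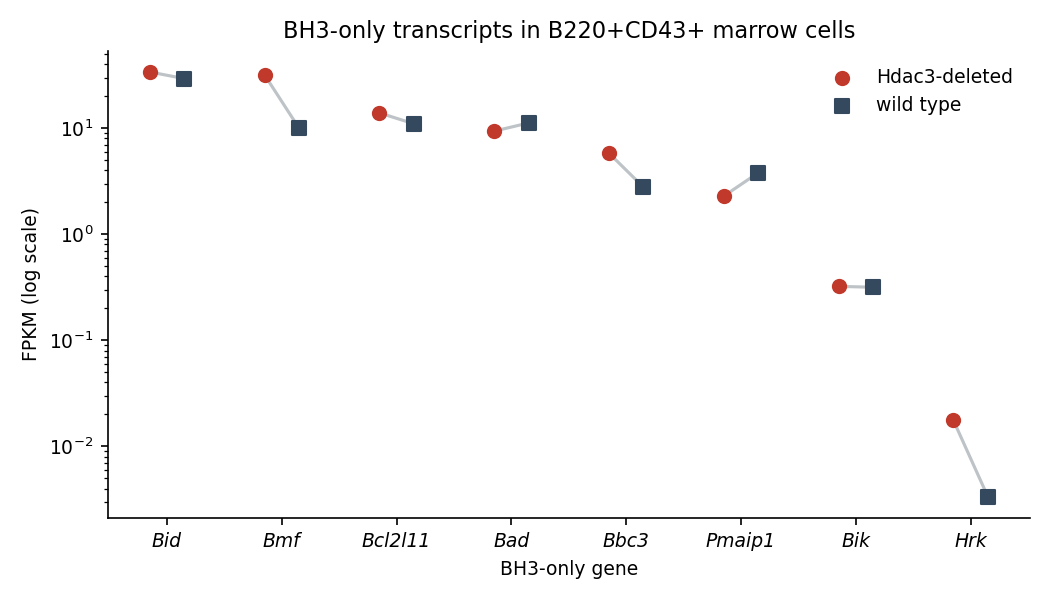
Authors' FPKM value of each BH3-only gene (log axis) in Hdac3-deleted cells (red circles) and wild-type cells (dark squares), 1 value per genotype that combines 2 libraries, with no error available. Bmf lies at 31.8 FPKM in Hdac3-deleted and 10.01 FPKM in wild-type cells, and Bik and Hrk lie under 1 FPKM in both.

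Bmf, on chromosome 2 from 118528757 to 118549678 of mm10, encodes a BH3-only protein that is held at the actin motor complexes through dynein light chain 2 and binds survival proteins when released. It was 31.8 FPKM in Hdac3-deleted cells and 10.01 FPKM in wild-type cells. It rose 3.18-fold, a log2 fold change of 1.67, with an approximate 95% interval from 1.09 to 2.24 (q = 0.0016, authors' deposited table). Intervals here take the log2 fold change divided by the authors' test statistic as its standard error, and they are not adjusted for the number of genes. By size of the fold change Bmf stood at place 36 among the 356 entries called higher.

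In wild-type cells Bmf was about as abundant as Bcl2l11 and Bad, at 0.91 of the Bcl2l11 level. In Hdac3-deleted cells it was 2.28 times the Bcl2l11 level and close to Bid, at 0.94 of the Bid level. Among tested entries its level moved to percentile 74.9 in Hdac3-deleted cells, against percentile 43.4 in wild-type cells. The 3 tested genes with the nearest pair of values, by distance between log2 FPKM over the 2 genotype values, were Bex6, Gbp7 and Steap4. Their distances were 0.15, 0.25 and 0.27 log2 units. Bex6 was 29.0 FPKM in Hdac3-deleted and 10.5 FPKM in wild-type cells.

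Bbc3, on chromosome 7 from 16309583 to 16318334, encodes PUMA, a BH3-only protein best known as a target of p53 that binds all the main survival proteins. It was 5.81 FPKM in Hdac3-deleted cells and 2.78 FPKM in wild-type cells. It rose 2.09-fold, a log2 fold change of 1.06 with an approximate 95% interval from 0.23 to 1.89 (q = 0.0016, authors' deposited table). A normal approximation to the same test statistic gave an adjusted p of 0.199 for Bbc3, against 2.28e-06 for Bmf, so the call of Bbc3 rests on Cuffdiff's own p-value. The nearest pairs of values were those of Pde9a, Cabp4 and Myl6b, at distances of 0.09, 0.11 and 0.13 log2 units.

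**Figure D2:**
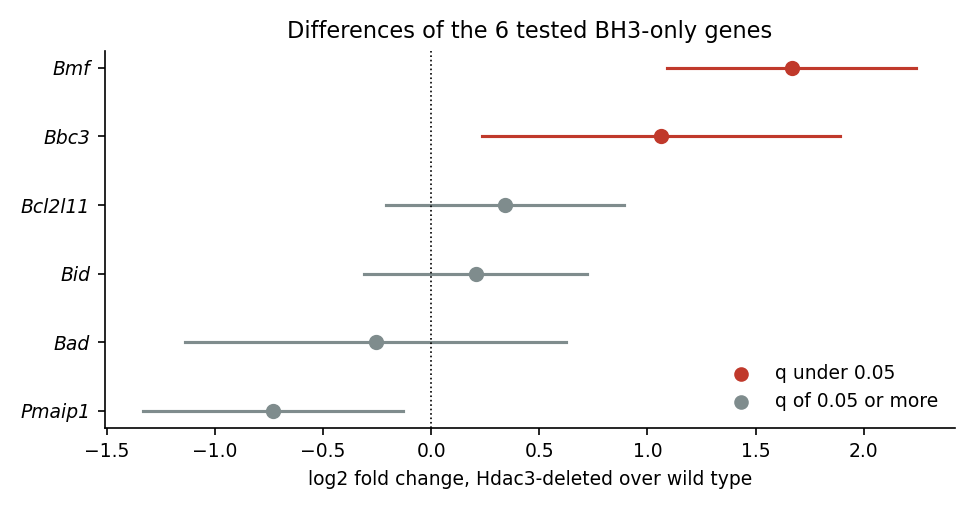
Log2 fold change of the 6 tested BH3-only genes, Hdac3-deleted over wild type, with approximate 95% intervals (lines) from the authors' test statistic, and genes with q under 0.05 in red. Bmf at 1.67 and Bbc3 at 1.06 are the 2 called genes, and the intervals of Bcl2l11, Bid and Bad include 0.

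Bcl2l11, on chromosome 2 from 128126038 to 128162547, encodes BIM, a BH3-only protein that binds all survival proteins and can activate BAX directly. It was 13.9 FPKM in Hdac3-deleted cells and 10.99 FPKM in wild-type cells. The log2 fold change was 0.34 with an interval from -0.21 to 0.89 (q = 0.377, authors' deposited table), so the data do not show a difference and leave room for a rise of up to 1.85-fold. The value covers all transcripts of the gene and does not separate the isoforms of BIM.

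Bid, on chromosome 6 from 120893119 to 120916820, encodes the protein that caspase-8 cleaves to link death receptors to mitochondria. It was the most abundant of the 8 genes in both genotypes, at 33.8 FPKM in Hdac3-deleted and 29.3 FPKM in wild-type cells. Its log2 fold change was 0.21 with an interval from -0.31 to 0.72 (q = 0.694, authors' deposited table). In GENCODE M21, 628 exon bases of Bid also belong to the opposite-strand gene Bcl2l13, though the authors' 2 entries do not overlap. Bcl2l13 was 11.7 FPKM in Hdac3-deleted and 11.8 FPKM in wild-type cells.

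Bad, on chromosome 19, encodes a BH3-only protein that growth factor signalling keeps inactive by phosphorylation. It was 9.36 FPKM in Hdac3-deleted and 11.2 FPKM in wild-type cells, a log2 fold change of -0.26 with an interval from -1.14 to 0.62 (q = 0.784, authors' deposited table). The authors' entry shares its locus, from 6938070 to 6951893, with Gpr137. The genes lie on opposite strands and share 524 exon bases in GENCODE M21, and whether the counting used strand is not given, so the value of Bad is less certain. Gpr137 was 12.7 FPKM in Hdac3-deleted and 11.2 FPKM in wild-type cells.

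Pmaip1, on chromosome 18 from 66458604 to 66465558, encodes NOXA, a p53-inducible protein that binds mainly MCL1 and A1. It was 2.29 FPKM in Hdac3-deleted cells and 3.79 FPKM in wild-type cells, the only tested BH3-only gene besides Bad with a lower value in Hdac3-deleted cells. Its log2 fold change was -0.73 with an interval from -1.33 to -0.13, an unadjusted p of 0.0089 and a q of 0.0977 in the authors' deposited table, which did not pass the threshold. The ratio of Bbc3 to Pmaip1 was 2.54 in Hdac3-deleted cells and 0.73 in wild-type cells, and this difference between the genes was not tested.

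Bik and Hrk were marked as not tested in the authors' deposited table. Bik, which encodes a BH3-only protein of the endoplasmic reticulum, was 0.322 FPKM in Hdac3-deleted and 0.316 FPKM in wild-type cells. Hrk, known for its role in neurons, was 0.0176 FPKM in Hdac3-deleted and 0.00336 FPKM in wild-type cells, levels too low for a fold change to be read.

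**Figure D3:**
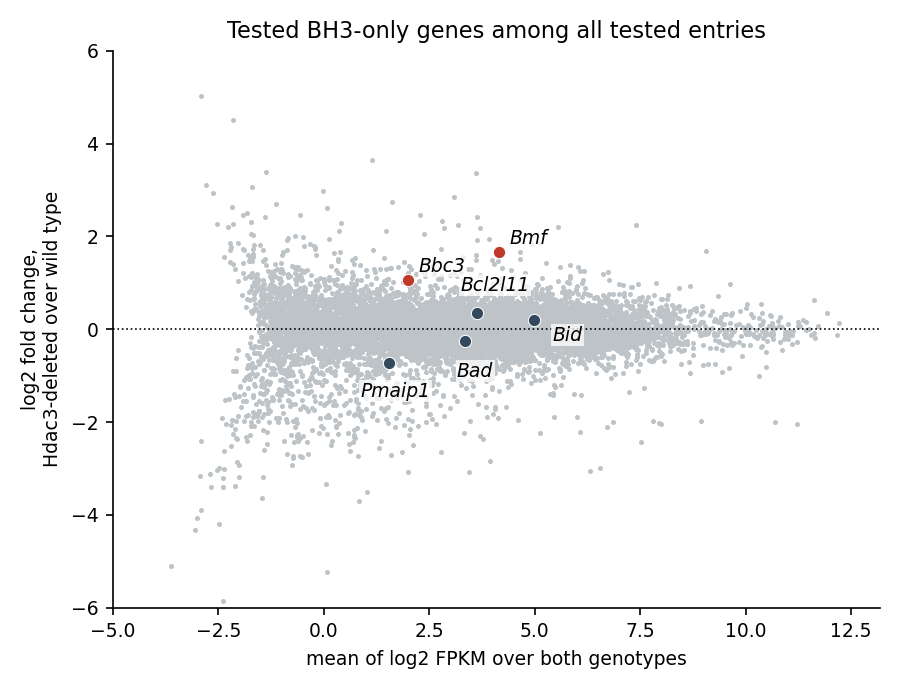
Log2 fold change, Hdac3-deleted over wild type, against the mean log2 FPKM of both genotypes for 12639 tested entries (grey, with 4 further entries beyond the axes and those at 0 in 1 genotype not drawn), with the 6 tested BH3-only genes marked and the called ones in red. Bmf lies at the upper edge of genes of its abundance, and Bcl2l11, Bid and Bad lie within the bulk.

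The make-up of the BH3-only transcripts differed between the genotypes mainly by Bmf. The 8 genes summed to 97.3 FPKM in Hdac3-deleted cells and 68.4 FPKM in wild-type cells, a ratio of 1.42. Without Bmf the sums were 65.5 FPKM in Hdac3-deleted and 58.4 FPKM in wild-type cells, a ratio of 1.12. Bmf made up 32.7% of the sum in Hdac3-deleted cells and 14.6% in wild-type cells. Bid made up 34.8% of it in Hdac3-deleted cells and 42.9% in wild-type cells. Bbc3 made up 5.97% in Hdac3-deleted and 4.06% in wild-type cells, and its difference was 3.03 FPKM, against 21.8 FPKM for Bmf. In Hdac3-deleted cells the order by level was Bid, Bmf, Bcl2l11, Bad, Bbc3, Pmaip1, Bik and Hrk. In wild-type cells it was Bid, Bad, Bcl2l11, Bmf, Pmaip1, Bbc3, Bik and Hrk. Whether neighbours in these orders differ beyond the spread between libraries cannot be read from 1 value per genotype.

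**Figure D4:**
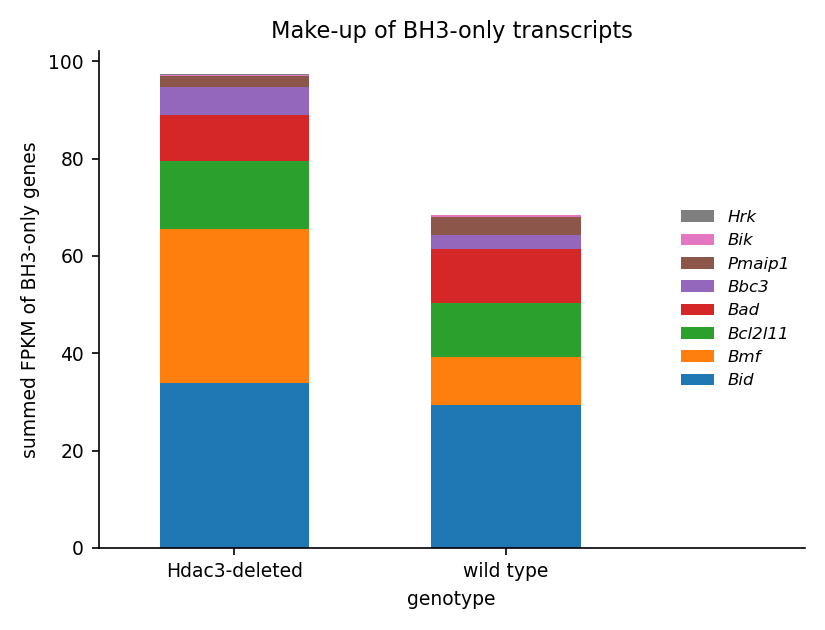
Summed FPKM of the 8 BH3-only genes by genotype (bars from 0, Hdac3-deleted left, 1 value per gene and genotype, no error available), split by gene. The total is 97.3 FPKM in Hdac3-deleted and 68.4 FPKM in wild-type cells, and the Bmf segment is the one that differs most, at 31.8 FPKM in Hdac3-deleted and 10.01 FPKM in wild-type cells.

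None of the survival genes that BH3-only proteins bind was called by Cuffdiff. Of 9 listed genes 5 were tested, where 6.95% of all tested entries were called, so 0 calls is near the background. Of the 5, 0 had an unadjusted p under 0.05 in either direction. Of all tested entries 8.16% passed as higher and 8.95% as lower. The normal approximation called none of the 5. Mcl1, which encodes the short-lived survival protein MCL1, was the most abundant at 152 FPKM in Hdac3-deleted and 119 FPKM in wild-type cells, a log2 fold change of 0.35 (q = 0.414, authors' deposited table). Bcl2 was 10.1 FPKM in Hdac3-deleted and 8.07 FPKM in wild-type cells, and Bcl2l1, encoding BCL-XL, was 29.1 FPKM in Hdac3-deleted and 27.1 FPKM in wild-type cells. Bcl2l2, encoding BCL-W, was 7.30 FPKM in Hdac3-deleted and 6.16 FPKM in wild-type cells, and Bcl2l10 was listed at 0 in both. Bmf was thus 3.16 times the Bcl2 level in Hdac3-deleted cells and 1.24 times in wild-type cells. Entries of the near-identical Bcl2a1 genes, which encode A1, were all under 2 FPKM, and shared reads make them uncertain. The summed level of BH3-only over survival genes was 0.488 in Hdac3-deleted and 0.421 in wild-type cells, a ratio of transcripts and not of proteins.

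The 3 effector genes likewise gave 0 calls by Cuffdiff, 0 at an unadjusted p under 0.05 and 0 by the normal approximation. With 6.95% of all tested entries called by Cuffdiff, 0 of 3 is near the background and is not a result about the effectors. Bax was 61.1 FPKM in Hdac3-deleted and 54.0 FPKM in wild-type cells, and Bak1, which shares its locus with Ggnbp1, was 49.0 FPKM in Hdac3-deleted and 48.0 FPKM in wild-type cells. Bok was 3.56 FPKM in Hdac3-deleted and 3.68 FPKM in wild-type cells.

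Of 18 tested transcription factors known to act on BH3-only genes, 1 was called higher and 2 were called lower. Cuffdiff called 2.81% of all tested entries higher and 4.14% lower. Counts of 1 and 2 among 18 are too small to be a result about the list. On the log2 scale the median fold change of these factors was 0.12. Foxo1, a forkhead activator of Bcl2l11 and other death genes, rose 2.03-fold to 77.6 FPKM in Hdac3-deleted cells, against 38.3 FPKM in wild-type cells (q = 0.0016, authors' deposited table). The stress-activated factor Jun fell to 27.0 FPKM in Hdac3-deleted cells, against 69.8 FPKM in wild-type cells. Egr1 fell to 6.07 FPKM in Hdac3-deleted cells, against 11.8 FPKM in wild-type cells. Trp53, encoding p53, was 102 FPKM in Hdac3-deleted and 82.2 FPKM in wild-type cells and did not pass (q = 0.431, authors' deposited table). Foxo3 was 13.8 FPKM in Hdac3-deleted and 9.56 FPKM in wild-type cells and did not pass either (q = 0.109, authors' deposited table). Trp53 and Foxo3 were named after their values were seen.

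Of the BH3-only genes, Bbc3 and Pmaip1 are p53 targets, one called higher and the other lower in value without passing. The other p53 targets had 28 tested members, with 5 higher, 1 lower and a median log2 fold change of 0.07. Of all tested entries 2.81% were called higher and 4.14% lower, so the count of 1 lower is near the background. Cdkn1a, which encodes the cell-cycle inhibitor p21, rose to 44.9 FPKM in Hdac3-deleted cells, against 14.2 FPKM in wild-type cells. The stress sensor gene Sesn1 rose 1.72-fold, Ddit4, an inhibitor of mTOR signalling, 1.67-fold, Trp53inp1 1.70-fold and Btg2, an antiproliferative gene, 1.70-fold. Btg2 was named after its value was seen. Fas, which encodes a death receptor, fell to 1.20 FPKM in Hdac3-deleted cells, against 2.76 FPKM in wild-type cells. The other 22 did not pass, among them Bax. By the normal approximation Cdkn1a alone of these genes was called, as higher, where 1.08% of all entries were called higher.

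FoxO targets had 22 tested members, with 8 higher and 0 lower by Cuffdiff. Of all tested entries 2.81% were called higher and 4.14% lower. At an unadjusted p under 0.05, 8 FoxO targets were higher and 0 lower, where 8.16% and 8.95% of all tested entries passed. By the normal approximation 4 were higher and 0 lower, against 1.08% and 2.65% of all entries. The median log2 fold change of these targets was 0.34, and 20 of the 22 values were positive. A positive median with mostly positive values was not particular to FoxO targets. The median was 0.49 for the B-lineage markers and 0.42 for the plasmacytoid dendritic cell markers, with all 11 and all 10 values positive. The calls differed more, with 5 of the 11 and 0 of the 10 called higher by Cuffdiff. The normal approximation called 1 of the 11 and 0 of the 10 higher. The recombinase genes Rag1 and Rag2 rose 4.77-fold and 2.60-fold. Irs2, an adaptor of insulin signalling, rose to 9.57 FPKM in Hdac3-deleted cells, against 3.71 FPKM in wild-type cells. Cat, which encodes catalase, rose 1.95-fold. The entries of Rag2 and Irs2 share their loci with B230118H07Rik and 9530052E02Rik, so their values are less certain. These 4 genes were the FoxO targets that the normal approximation also called. Sesn1 is a member of both target lists, and the called FoxO targets Rag1 and Blnk are also B-lineage markers. The lists were chosen with these results known, so their direction is not independent evidence.

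**Figure D5:**
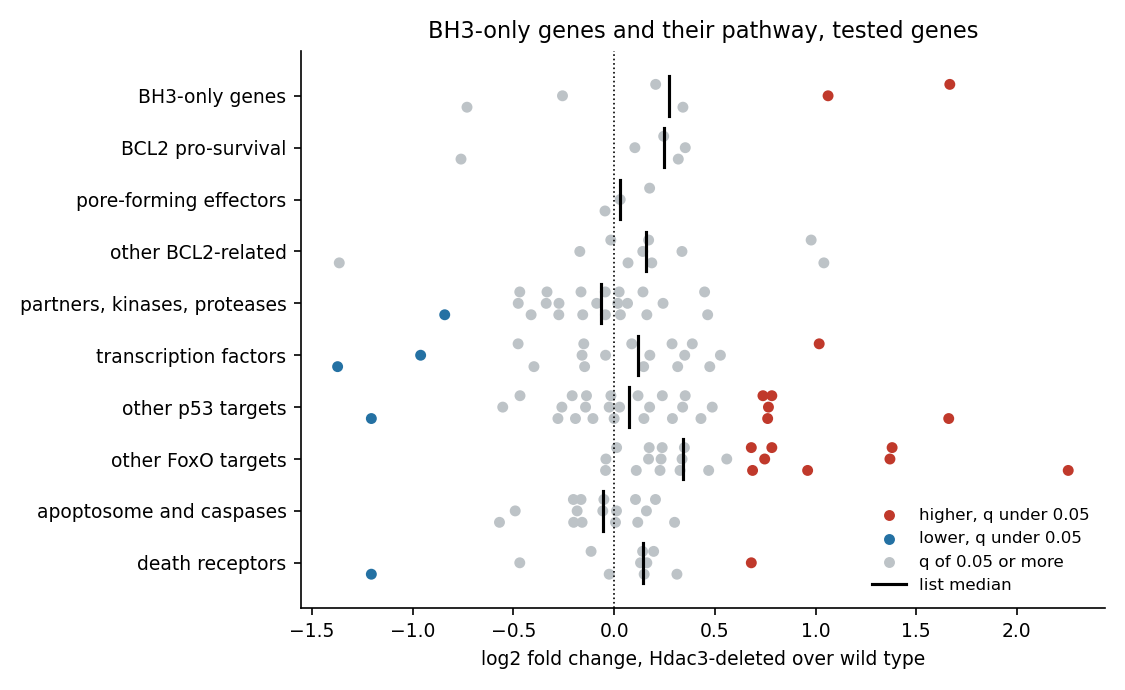
Log2 fold change, Hdac3-deleted over wild type, of each tested gene in the BH3-only set and the 9 lists of its pathway (points, called higher in red, called lower in blue), with the median of each list as a black bar. The BH3-only genes span from -0.73 to 1.67, the survival genes and effectors hold no called gene, and the other FoxO targets have 8 genes called higher. Over all tested entries 2.81% were called higher and 4.14% lower.

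Genes whose products hold, modify or cleave BH3-only proteins gave 0 higher and 1 lower call among 22 tested, with a median log2 fold change of -0.07, where 2.81% of all tested entries were called higher and 4.14% lower. A count this near the background is not a result about the list. The lower one was Btrc, a subunit of the ubiquitin ligase that targets phosphorylated BIM, at 11.2 FPKM in Hdac3-deleted and 20.0 FPKM in wild-type cells (q = 0.0016, authors' deposited table). At an unadjusted p under 0.05 there were 2 higher and 4 lower. Of all tested entries 8.16% passed as higher and 8.95% as lower. The normal approximation called none. Dynll2, which encodes the dynein light chain that holds BMF, was 26.2 FPKM in Hdac3-deleted and 25.8 FPKM in wild-type cells. Casp8, whose product cleaves BID, was 48.6 FPKM in Hdac3-deleted and 43.5 FPKM in wild-type cells. Dynll2 and Casp8 were named for their link to BMF and BID after their values were seen.

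Downstream of the effectors, 0 of 16 apoptosome, caspase and caspase-inhibitor genes were called by Cuffdiff and 0 by the normal approximation, where 6.95% of all tested entries were called by Cuffdiff, so that 0 is near the background. At an unadjusted p under 0.05 there were 0 higher and 1 lower, where 8.16% and 8.95% of all tested entries passed. The lower one was Cycs, which encodes cytochrome c, at 39.2 FPKM in Hdac3-deleted and 58.1 FPKM in wild-type cells, a log2 fold change of -0.57 with an interval from -0.99 to -0.15 (q = 0.0542, authors' deposited table). Cycs was named after its value was seen. Casp2 was 67.6 FPKM in Hdac3-deleted and 58.7 FPKM in wild-type cells.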

How the data were processed

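The 4 libraries of polyadenylated RNA, 2 per genotype, were grouped by their titles. Trimmomatic 0.32, TopHat2 2.0.11 and Cuffdiff 2.1.1 were run on mm10, per the submitters' processing notes. No source used here gives their options, annotation or scaling. The deposited table has 1 FPKM value per gene and genotype, and the authors' p-value, q-value and test statistic, a score, per the file headers. A Benjamini-Hochberg adjustment of the deposited p-value over 12683 tested entries returned the deposited q-value within 5.27e-07. The smallest p-value, 5e-05, is shared by 396 entries. Fold changes were computed here from FPKM without a pseudocount. Intervals assume a normal test statistic with a quantile of 1.96. The code for the interval and the adjustment was run on data simulated with normal errors of known size. That run checks the code and cannot show whether the authors' test statistic is normal.

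The members and the 9 pathway and 6 marker lists were chosen with earlier results of these data known, and the promoter motifs with the sequences in view. Genes that could be named were all members, survival and effector genes, up to 4 called genes per list by smallest q, or the 2 most abundant where none was called, and the 3 nearest neighbours of each called member. Older symbols were matched through RefSeq synonyms. No values per library were used. The p-values rest on only 2 pooled libraries per genotype, and how the authors' test modelled the spread between them is not given. Alternatives varied the threshold, a minimum fold, a minimum FPKM, the pseudocount, the scaling and the source of the p-value, the last added for the marker lists after seeing the data. The tools were pandas 2.3.3 on Python 3.11.15, scipy 1.17.1, numpy 2.4.6 and matplotlib 3.10.9.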

Additional observations from a re-analysis of the deposited data

How the results depend on the processing

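Bmf was called under every threshold, filter and source of the p-value tried. Its q was already the smallest that any tested entry had, and it rose over 2-fold at over 1 FPKM. Only the normal p could therefore have lost the call, and the other settings are no check of it. A pseudocount of 1 FPKM cannot change the sign of a difference. Centring on the median gene moved each log2 fold change by only 0.02, so neither is a check of direction. With the pseudocount the log2 fold change was 1.57 for Bmf and 0.85 for Bbc3. With a normal p from the test statistic, 1 BH3-only gene was called higher in place of 2, with Bbc3 lost. At a q under 0.1, 1 BH3-only gene, Pmaip1, was called lower, and 1 of 16 apoptosome genes, Cycs, was called lower in place of 0. Over all tested entries 3.86% were then called higher and 5.31% lower, so the apoptosome count is near the background. At a q under 0.01, higher calls were 3 p53 targets, 5 FoxO targets and 0 death receptor genes, and lower calls were 0 p53 targets and 0 death receptor genes. With the normal p, higher calls were 1 p53 target, 4 FoxO targets and 0 death receptor genes, and lower calls were 0 p53 targets, 0 death receptor genes and 0 partner genes. With at least a 2-fold difference, higher calls were 1 p53 target, 3 FoxO targets and 0 death receptor genes, and lower calls were 0 partner genes and 1 transcription factor. Over all entries the normal p called 136 higher and 335 lower, or 1.08% and 2.65%. At a q under 0.01 there were 189 higher and 345 lower, or 1.49% and 2.72%. With at least a 2-fold difference 1.02% were called higher and 2.33% lower. The minimum of 1 FPKM moved no list's count by over 1.5 times. No paired analysis was possible because the table holds 1 value per genotype, and for the same reason no library could be left out.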

Other observations

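Of 11 tested genes of the death receptor pathway, 1 rose and 1 fell by the authors' q, where 2.81% of all tested entries were called higher and 4.14% lower. Tnfsf10, which encodes the death ligand TRAIL and is also in the FoxO target list, rose to 20.9 FPKM in Hdac3-deleted cells, against 13.0 FPKM in wild-type cells (q = 0.0146, authors' deposited table). Fas is the one that fell. Neither was called by the normal approximation. Of 10 tested genes related to the BCL2 family by sequence or binding, none was called by Cuffdiff or by the normal approximation. With 6.95% of all tested entries called by Cuffdiff, that is near the background. An unadjusted p under 0.05 with a higher value was found for 8.16% of all tested entries and for 1 of these 10 genes. Itm2b was the most abundant of them, at 445 FPKM in Hdac3-deleted and 395 FPKM in wild-type cells, followed by Becn1, an autophagy gene, at 58.4 FPKM in Hdac3-deleted and 65.8 FPKM in wild-type cells.

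Among the other marker lists, 0 of 11 T and NK cell markers were called by Cuffdiff, where 6.95% of all tested entries were called. At an unadjusted p under 0.05 there were 0 in either direction, where 8.16% of all tested entries passed as higher and 8.95% as lower. Counts of 0 among 11 are near these shares. The T and NK cell markers summed to 722 FPKM in Hdac3-deleted and 648 FPKM in wild-type cells. Of 6 tested erythroid markers 1 was lower in Hdac3-deleted cells, and of 6 tested plasma cell markers 3 were lower, where 4.14% of all tested entries were called lower. By the normal approximation 1 erythroid and 1 plasma cell marker, Igj, were lower, against 2.65% of all entries.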
